A study of Mus musculus with 4 samples.

Results

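Apod Inmt Steap4 fibroblasts of the mouse renal capsule, the fibrous envelope of the kidney, were taken as the collagen-positive cells that carried transcripts of at least 4 of the 5 genes Apod, Inmt, Steap4, Hp and Cyp1b1. A cell counted as collagen-positive with at least 5 unique molecular identifiers (UMIs) of Col1a1, Col1a2 and Col3a1 together and none of the leukocyte gene Ptprc or the endothelial gene Pecam1. This gave 2302 member cells of 13001 collagen-positive cells and of 37361 cells that passed the quality filter of at least 500 UMIs, 300 genes and at most 20% mitochondrial UMIs. Young replicates 1 and 2 held 537 and 540 members, and aged replicates 1 and 2 held 521 and 704. The genes that chose the members are described below without a test.

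Capsules of untreated young and aged mice were peeled from the kidney, digested and sequenced by droplet 3' single-cell RNA-seq, with 2 libraries per age. The study set young against aged capsules. The exact ages, the strain and how many mice went into a library were not stated in the labels. The replicates may therefore be technical, and p-values reflect the spread among 4 libraries only. The libraries held 7067 to 12289 barcodes and 51180311 to 70925446 UMIs, and aged replicate 2 was the shallowest per member cell, with a median of 5714 UMIs against 8165 to 8643 in the other 3. Just 1 barcode was shared by the members of different libraries.

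Fibroblasts build and remodel the collagen matrix of connective tissue, and in many organs they also fall into states that are recognised by secreted products. A state with the chemokine Cxcl12, complement genes and lipid-handling genes is known from the stroma around vessels and in fat depots, where such cells include adipocyte progenitors. Apod encodes apolipoprotein D, a small lipid carrier, and Hp encodes haptoglobin, which binds free haemoglobin. Inmt is an N-methyltransferase of indole amines, Steap4 a metal reductase of iron and copper, and Cyp1b1 a cytochrome P450 enzyme induced through the aryl hydrocarbon receptor.

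In GENCODE M21 coordinates of mouse build GRCm38, Apod lies on chromosome 16, 31296192 to 31314808, Inmt on chromosome 6, 55170626 to 55175043, Steap4 on chromosome 5, 7960457 to 7982213, Hp on chromosome 8, 109575128 to 109579172 and Cyp1b1 on chromosome 17, 79701537 to 79715061. Promoter sequence was at hand for 4 of the 5 genes (RefSeq, GRCm38.p6), and Hp had no entry. The 250 bases before each start were searched on both strands for TTGCNNAA, a core bound by C/EBP factors, and for GCGTG, the core of the response element of the aryl hydrocarbon receptor. TTGCNNAA was found in Steap4 alone of these 4, and GCGTG in Cyp1b1 alone. Of 32851 promoters of the same length, 9.56% held TTGCNNAA and 28.2% held GCGTG, so a match describes letters and not a bound site. The 2 matching promoters are shown 5′ to 3′ on the gene's strand, with the match in capitals, because they are the ones that hold a match. Steap4 is at chr5:7960222-7960471 on the plus strand and Cyp1b1 at chr17:79715062-79715311 on the minus strand, where GCGTG reads as its complement.
Steap4: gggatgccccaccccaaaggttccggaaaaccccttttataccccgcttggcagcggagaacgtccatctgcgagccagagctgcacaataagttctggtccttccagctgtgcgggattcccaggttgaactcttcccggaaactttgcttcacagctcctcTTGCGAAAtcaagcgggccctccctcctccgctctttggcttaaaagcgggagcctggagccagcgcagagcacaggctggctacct
Cyp1b1: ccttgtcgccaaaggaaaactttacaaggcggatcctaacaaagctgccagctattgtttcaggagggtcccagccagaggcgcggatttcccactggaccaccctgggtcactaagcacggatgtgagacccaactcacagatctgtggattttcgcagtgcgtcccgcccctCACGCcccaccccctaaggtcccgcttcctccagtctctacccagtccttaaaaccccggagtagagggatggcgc

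Levels are in CPM, the UMI count of a gene scaled to a total of 1000000 UMIs over a cell set in a library. Steap4 had 344 and 337 CPM in the young and 394 and 391 CPM in the aged members, against 47.7 and 40.7 CPM in the young and 52.8 and 70.6 CPM in the aged other collagen-positive cells. Cyp1b1 had 252 and 243 CPM in the young and 265 and 281 CPM in the aged members, against 38.8 and 38.9 CPM in the young and 56.4 and 63.3 CPM in the aged others. Both genes were chosen for this pattern. Their levels in members spanned a narrow range, with both aged libraries somewhat above both young ones.

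Apod had 250.1 and 245 CPM in the young and 1202 and 1029.6 CPM in the aged members, so that both aged libraries lay above both young ones. In the other collagen-positive cells it had 127 and 108 CPM in the young and 316 and 353 CPM in the aged libraries. Inmt had 652 and 627 CPM in the young and 993 and 997 CPM in the aged members. Haptoglobin transcript varied without that order, since Hp had 662 and 783 CPM in the young and 709 and 989 CPM in the aged members. Apod was also the marker most often lacking in young members that carried 4 of the 5, being absent from 42.9% and 43.4% of them, against 25.3% and 17.6% in the aged libraries.

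Leukocyte barcodes, which should lack these genes, gave the background that free RNA can leave in droplets. Among barcodes with at least 2 Ptprc UMIs, 1.96% to 2.89% held a Cyp1b1 UMI and 2.87% to 3.58% a Steap4 UMI, at median depths of 5274 to 8243 UMIs. In members those shares were 80.3% to 88.5% for Cyp1b1 and 84.4% to 91.8% for Steap4. Cells just outside the threshold, with 3 of the 5 markers, had 152.5 to 166 CPM of Steap4 in the young and 108 and 158 CPM in the aged libraries, between the members and the rest. These cells numbered 611, 588, 289 and 513 in the young and then the aged replicates. They were sorted by the rule's own markers, so their number and Steap4 level cannot tell a range from a gap.

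Fibroblast markers were present in every library. The 10 fibroblast markers, led by the collagen-binding proteoglycan Dcn, summed to 42388 and 40160.0 CPM in the young and 37901 and 39339 CPM in the aged members, all 10 passed the filter on low counts, and 6 of them fell with age in the test described below. Markers of other cell types summed to less, over a wide range. The 10 mural genes summed to 32.5 to 59.2 CPM in members with Higd1b at 0, the 6 glial genes to 19.2 to 31.4 CPM with Sox10 at 0, and the 6 adrenal genes to 3.25 to 4.03 CPM with Cyp11b1 and Hsd3b1 at 0. Adipocyte genes were higher, 97 to 823 CPM for 8 genes with the brown fat gene Ucp1 at 0. The 10 macrophage genes summed to 441 and 507 CPM in the young and 205 and 566 CPM in the aged members. The 5 erythroid genes summed to 7.27 and 535 CPM in the young and 1.79 and 1.39 CPM in the aged members. Proximal tubule and plasma cell genes, given further below, summed to as much as 1051 and 4774 CPM in a library. Of the members, 1152 of 2302 also carried at least 2 of Col6a5, Spon1 and Col15a1, against 2084 of the 10699 other collagen-positive cells. By library these were 383 of 537 and 407 of 540 young members and 167 of 521 and 195 of 704 aged members. At least 2 of Postn, Smpd3 and Cxcl13 were carried by 753 members and by 4479 of the others, but pooling mixes ages of unequal weight. By library they were carried by 237 and 235 young and 147 and 134 aged members. Of the others they were carried by 1804 of 3877 and 2071 of 4467 young and 256 of 817 and 348 of 1538 aged cells. Within a library the shares of members and others lay closer than in the pooled counts.

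Outside the rule, secreted proteins led the genes that were higher in members than in other collagen-positive cells of the same library. These ratios describe cells chosen by their transcripts and were not tested. Cxcl14, a chemokine, was 7.66 to 9.15 times as high in members over the 4 libraries, with 53.7 and 65.1 CPM in the young and 179 and 218 CPM in the aged members. Serpina3n, a serine protease inhibitor, was 3.93 to 5.37 times as high. Cxcl12, which holds stem cells and leukocytes in stromal niches through the receptor Cxcr4, was 3.38 to 5.54 times as high, although barcodes with Pecam1 had more of it in the young libraries, at 930 and 685 CPM against 428 and 421 CPM in young members. The complement component C4b was 2.59 to 6.35 times as high in members, although Ptprc-positive barcodes carried it too, at 341 to 454 CPM. Other collagen-positive cells with at least 2 of Col6a5, Spon1 and Col15a1 came nearer to the members. In them Cxcl14 had 15.3 and 25.7 CPM in the young and 113 and 228 CPM in the aged libraries. Cxcl12 had 135 and 140 CPM in the young and 639 and 857 CPM in the aged libraries there.

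Matrix genes formed another set among the 25 leading genes. Spon1, a secreted matrix protein, was 3.71 to 4.21 times, Col15a1, a collagen of basement membrane zones, 2.94 to 5.45 times and Col6a5, a collagen VI chain, 2.85 to 5.43 times as high in members. Col6a6, its neighbour in the family, was 2.25 to 2.50 times as high. Other collagen-positive cells chosen by at least 2 of Col6a5, Spon1 and Col15a1 held these genes through that choice. These cells were near the members for Col15a1 and Spon1 in the young libraries and apart from them for Col6a5 at both ages. Col15a1 had 420 and 349 CPM in their young and 216 and 278 CPM in their aged libraries, against 394 and 357 CPM and 152 and 122 CPM in members. Col6a5 had 443 and 463 CPM and 452 and 569 CPM there, against 813 and 858 CPM and 273 and 284 CPM. Spon1 had 275 and 268 CPM and 151 and 139 CPM, against 304 and 292 CPM and 69.5 and 59.2 CPM. Ligands and their modulators were also there: the growth factor Igf1 at 2.68 to 3.12 times, Gdf10 of the TGF-beta family at 2.72 to 3.38 times, the BMP-binding protein Bmper at 3.02 to 4.43 times and the receptor ligand Alkal2 at 2.59 to 3.45 times. Igf1 was abundant, with 1668 and 1638 CPM in the young and 850.1 and 875 CPM in the aged members.

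Lipid, iron and copper handling made up a further set. Lpl, the lipase that releases fatty acids from lipoproteins, had 2138 and 2188 CPM in the young and 1586 and 1492 CPM in the aged members, which was 2.32 to 2.93 times the level of the others. Cebpa, an adipogenic transcription factor, was 2.40 to 3.73 times as high, and the oestrogen sulfotransferase Sult1e1 2.22 to 2.63 times. Ceruloplasmin (Cp), a copper-bearing ferroxidase, was 2.22 to 4.43 times and the siderophore-binding Lcn2 2.37 to 3.68 times as high. Apoe was 2.62 to 3.92 times as high in members but reached 9872 to 15972 CPM in Ptprc-positive barcodes, above its level in members.

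**Figure D1:**
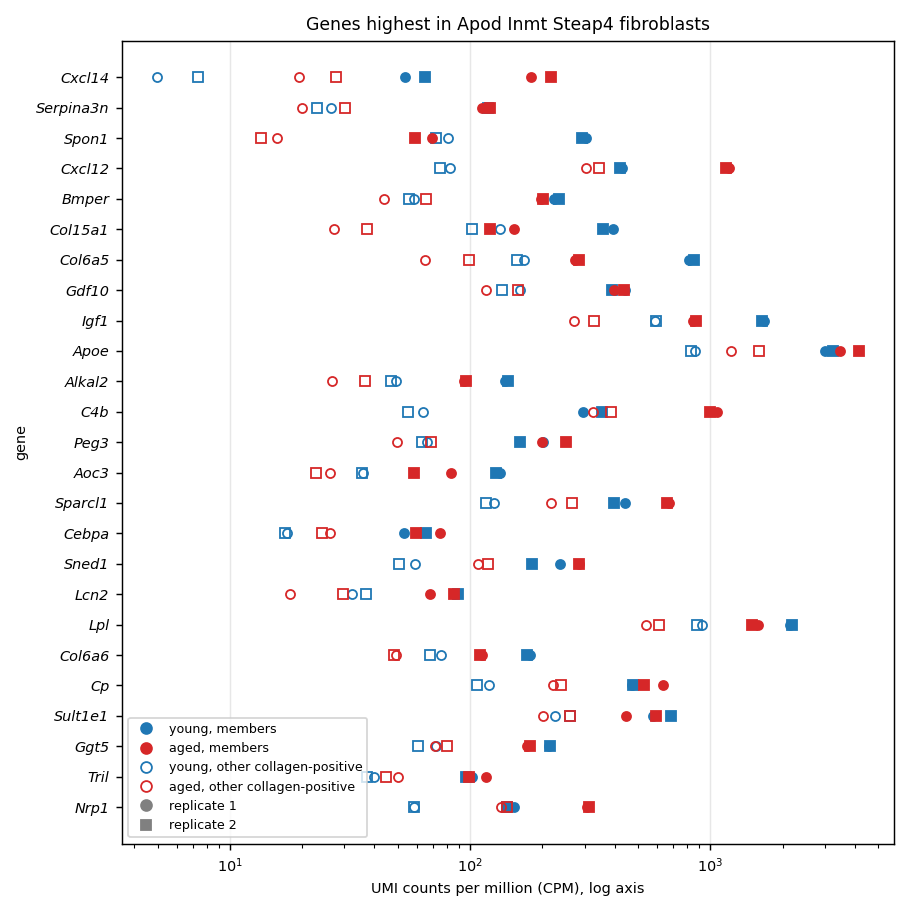
CPM (log axis) of the 25 leading genes in members (filled) and in other collagen-positive cells (open), by library, young in blue and aged in red. Filled symbols lie right of the open symbols of the same library throughout, from 7.66 to 9.15 times for Cxcl14 down to 2.19 to 2.57 times for Nrp1.

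Among the genes lowest in members were Dmkn, Krtdap and Sbsn, which mark another group of capsule fibroblasts, and Slpi, a protease inhibitor that led the mesothelial cluster. Slpi had 3.21 to 50.4 CPM in members against 373 to 1099 CPM in the others. Dmkn, a secreted protein named from skin, had 8.56 and 15 CPM in the young and 8.07 and 8.35 CPM in the aged members against 245 and 293 CPM in the young and 206 and 179 CPM in the aged others. Krtdap had 20.8 and 34.3 CPM in the young and 19.9 and 31.3 CPM in the aged members against 317 and 369 CPM in the young and 305 and 295 CPM in the aged others. Igfbp5, which binds insulin-like growth factors, had 205 and 257 CPM in the young and 507 and 419.8 CPM in the aged members against 2834 and 3132 CPM in the young and 3804 and 3548 CPM in the aged others. Thy1, a surface marker of many fibroblasts, had 17.1 and 14 CPM in the young and 18.8 and 22.5 CPM in the aged members against 98.8 and 100.1 CPM in the young and 116 and 108 CPM in the aged others. Each gene named here was lower in members of every library, which is how these genes were chosen.

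The levels graded with the number of markers. The 25 leading genes summed to 1696 to 2422 CPM in cells with 0 of the 5 markers, 6337 to 8317 CPM with 3, 11063 to 12132 CPM with 4 and 14664 to 16208 CPM with all 5. These cells were ordered by the same transcripts that chose the members, so the grade is a description.

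When all 13001 collagen-positive cells were clustered without the rule genes, young and aged members fell into different clusters. The libraries were not aligned to one another before clustering, and the collagen-positive cells as a whole also split by age. Cluster 0, led by Cxcl14, Mmp3, Cxcl12 and C4b, held 75.2% and 75.3% of the aged members. Of the young members it held 3.17% and 2.04%. Of all collagen-positive cells, cluster 0 held 44.3% and 42.6% in the aged and 0.68% and 0.539% in the young libraries. Clusters 4, 5 and 7 together held 59.2% and 52.4% of young members, against 2.50% and 1.70% in the aged libraries. Cluster 4 was led by Tgfbi, Cpz and Dlk1 and cluster 5 by Cxcl13, H19 and Nrep. Cluster 7, led by the immediate early genes Btg2, Atf3, Fosb and Fos, which dissociation can induce, held 17.5% and 19.4% of young members and 0.384% and 0.71% in the aged libraries, and its part in the age comparison was not tested. Cluster 11, led by the adipocyte genes Car3, Agt, Fabp4 and Adipoq, held 26.6% and 29.1% of the young members (143 and 157 cells) and 3.26% and 2.84% of the aged (17 and 20 cells), and members made up 70.2% of it.

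Cluster 1, led by gene models and by Prdm8, Sfrp4 and Fez1, held 14.8% and 12.8% of the aged members and none of the young. Of all collagen-positive cells it held 38.6% and 38.3% in the aged and 0.408% and 0.26% in the young libraries. Clusters led by genes of other cell types (macrophages, mesothelium, proximal tubule, erythroid, T and NK, mural and plasma cells) held 2.61% and 6.48% of young members, against 1.54% and 5.40% in the aged libraries. The clusters were built from the same counts that are compared by age below, so they do not count as separate support. The age comparison below thus sets a set of cells spread over clusters 4, 5, 7 and 11 against one held mainly in cluster 0, and values without cluster 11 are given where they differ.

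**Figure D2:**
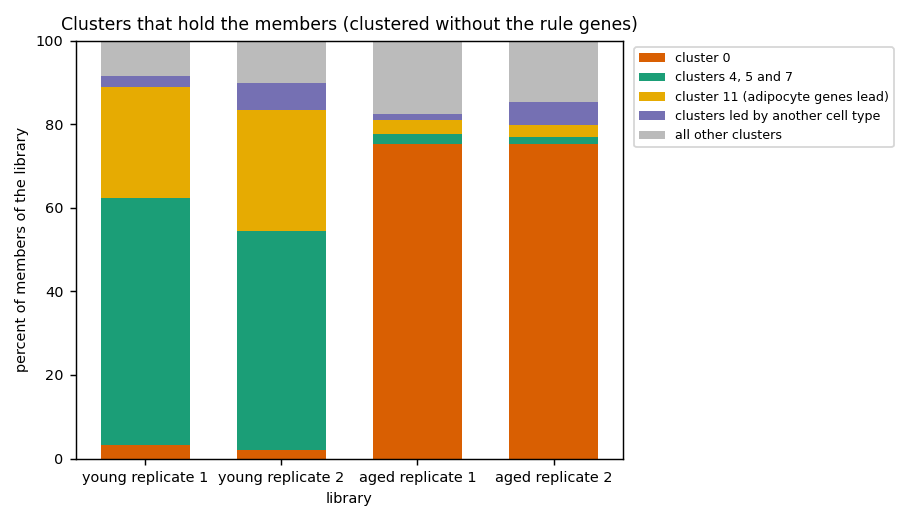
Percent of the members of each library in groups of clusters, which were made without the rule genes. Cluster 0 holds 75.2% and 75.3% of the aged members and at most 3.17% of the young, while the adipocyte-led cluster 11 holds 26.6% and 29.1% of the young members. The split by age is not particular to members, since cluster 0 also holds 44.3% and 42.6% of all aged collagen-positive cells.

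Members made up a larger share of the collagen-positive cells in both aged libraries. They were 12.2% (95% exact binomial interval 11.2% to 13.2%) and 10.8% (9.94% to 11.7%) in the young and 38.9% (36.3% to 41.6%) and 31.4% (29.5% to 33.4%) in the aged libraries. The mean share was 11.5% ± 0.976 (SD, n = 2) against 35.2% ± 5.33, a ratio of 3.06. The ages did not overlap, but the two-sided exact permutation p was 0.33, the smallest that 2 against 2 libraries allow. The share counts cells by detection of the rule's own markers, so it also depends on their level. In the other collagen-positive cells the 5 markers summed to 512 and 482 CPM in the young and 946 and 1279 CPM in the aged libraries. Whether the share reflects the number of such cells or the level of their markers was not tested.

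Of all cells that passed the quality filter, members were 5.97% and 5.60% in the young and 7.70% and 5.88% in the aged libraries (log2 ratio 0.23, exact permutation p = 0.667). The denominator of the share among collagen-positive cells differed by age, with 4414 and 5007 cells in the young and 1338 and 2242 in the aged libraries. Collagen transcript, which sets that gate, was lower in the aged members: Col1a1 had 3277 and 3402 CPM in the young and 1016 and 960.2 CPM in the aged members and Col3a1 had 5865 and 5975 CPM in the young and 1824 and 1709 CPM in the aged members. With at least 5 Dcn UMIs in place of the collagens, an alternative chosen after seeing the data, the shares were 12.1%, 10.7%, 38.0% and 30.7% in the same order. After each cell was thinned to 2000 UMIs the shares were 2.33%, 1.78%, 10.8% and 9.07%, with 338, 656, 40 and 88 shallower collagen-positive cells left out.

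Gene levels of aged and young members were compared with edgeR's quasi-likelihood test on summed counts, with adjusted p under 0.05 as the threshold and CPM scaled by the trimmed mean of M-values (TMM). Of 12294 genes tested, 1316 changed (10.7%), with 634 higher (5.16%) and 682 lower (5.55%) in the aged members. The counts for gene lists below are to be read against these shares of all genes. The median log2 change of all genes was -0.00012. At an unadjusted p under 0.05 there were 3030 genes, and the young and aged libraries did not overlap for 53.8% of all genes tested.

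The named genes with the largest rises included a matrix protease, a lipid transfer protein and a matrix protein. Mmp3, which degrades matrix proteins, had 10.6 and 10.5 CPM in the young and 116 and 122 CPM in the aged members, a log2 change of 3.50 ± 0.14 (SE, adjusted p = 4.83e-07). Pltp, a phospholipid transfer protein, had 57.7 and 61.4 CPM in the young and 275 and 278 CPM in the aged members and a log2 change of 2.21 ± 0.10 (SE, adjusted p = 1.39e-06). Hmcn2, a hemicentin of the matrix, had 12.7 and 15.8 CPM in the young and 72.1 and 66.9 CPM in the aged members and a log2 change of 2.28 ± 0.15 (SE, adjusted p = 8.27e-06). In all 3 genes the replicates of an age lay close together and far from the other age.

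Gngt2, a G protein subunit, had 13.6 and 12.9 CPM in the young and 69 and 62.7 CPM in the aged members, a log2 change of 2.31 ± 0.14 (SE, adjusted p = 4.88e-06). Among gene models without a stated role, C130026I21Rik had 0.216 and 0.606 CPM in the young and 106 and 82 CPM in the aged members, a log2 change of 7.72 ± 0.30 (SE, adjusted p = 4.83e-07). Gm7609 (log2 change 5.06, adjusted p = 5.60e-06) and AC149090.1 (2.24, adjusted p = 2.93e-06) also rose. These models also rose in the other collagen-positive cells, and no difference between the cell sets passed the test for them.

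Transcripts of immune cells rose as well, and their source was not tested. Igkc, the immunoglobulin kappa constant chain, had 4.10 and 3.84 CPM in the young and 3862 and 4048 CPM in the aged members (log2 change 9.95, adjusted p = 3.62e-11). Without the clusters led by other cell types, an alternative chosen after seeing the data, Igkc had 2.22 and 1.98 CPM in the young and 115 and 271 CPM in the aged members. Ighm had 9.93 and 11.3 CPM in the young and 600.1 and 345 CPM in the aged members, and 5.99 and 7.69 CPM in the young and 13.8 and 23.3 CPM in the aged members without those clusters. Jchain had 0 and 0.202 CPM in the young and 288 and 43.7 CPM in the aged members, with aged replicate 1 well above aged replicate 2.

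The plasma cell markers summed to 15 and 18 CPM in the young and 4774 and 4452 CPM in the aged members, and 5 of the 5 that were tested rose. T and NK cell markers summed to 12.2 and 5.01 CPM in the young and 50.9 and 149.9 CPM in the aged members, and all 6 tested rose. Ccl5 had 10.8 and 3.64 CPM in the young and 26.2 and 82.5 CPM in the aged members. The call for Ccl5 remained in 12 of 14 alternatives and was lost by DESeq2's Wald test (adjusted p = 0.088), among others. Cd52, a lymphocyte surface glycoprotein, had 11 and 9.70 CPM in the young and 39 and 86.6 CPM in the aged members and 3.99 and 3.08 CPM in the young and 16.4 and 15.8 CPM in the aged members without the clusters led by other types. None of the 10 macrophage markers passed the test.

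The named falls included a membrane protein, a Wnt agonist and a matrix protein. Itm2a, a membrane protein, had 302 and 317 CPM in the young and 20.2 and 29.5 CPM in the aged members, a log2 change of -3.64 ± 0.16 (SE, adjusted p = 9.89e-07). Rspo3, a secreted R-spondin that strengthens Wnt signalling, had 56.6 and 57.4 CPM in the young and 7.62 and 12.1 CPM in the aged members, a log2 change of -2.53 ± 0.18 (SE, adjusted p = 1.86e-05). Sparc, a collagen-binding matricellular protein, had 8686 and 9369.8 CPM in the young and 1993 and 2238 CPM in the aged members, a log2 change of -2.09 ± 0.095 (SE, adjusted p = 1.33e-06). None of these 3 genes had overlapping ages, and Sparc was among the most abundant transcripts of young members.

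Spon1 fell too, with 307 and 294 CPM in the young and 69.4 and 59.2 CPM in the aged members and a log2 change of -2.22 ± 0.11 (SE, adjusted p = 1.98e-06), although it was higher in members than in the others at both ages. Gnai1, a G protein subunit, fell by 1.91 on the log2 scale and Nrep by 1.89, with adjusted p = 9.85e-06 and 1.86e-05. The gene 1500015O10Rik, which encodes a secreted peptide, went from 241 to 48.6 CPM (log2 change -2.31, adjusted p = 1.55e-04).

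Other falls included genes of erythroid and tubule cells, whose source was not tested. Hbb-bs, a haemoglobin chain, was high in young replicate 2 alone, with 4.10 and 333 CPM in the young and 0.448 and 0 CPM in the aged members (log2 change -9.37, adjusted p = 0.022). Gatm, an enzyme abundant in the proximal tubule, had 29.6 and 109 CPM in the young and 0.896 and 19.3 CPM in the aged members (log2 change -2.80, adjusted p = 0.036), and tubule markers summed to 161 and 1051 CPM in the young and 3.59 and 344 CPM in the aged members. Of the 10 tubule markers 1 fell, and the sum in aged replicate 2 lay above that in young replicate 1. The call for Hbb-bs and that for Gatm were each lost without aged replicate 1, at log2 changes of -12.61 and -1.85, and Gatm was not called by DESeq2's Wald test (adjusted p = 0.724).

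**Figure D3:**
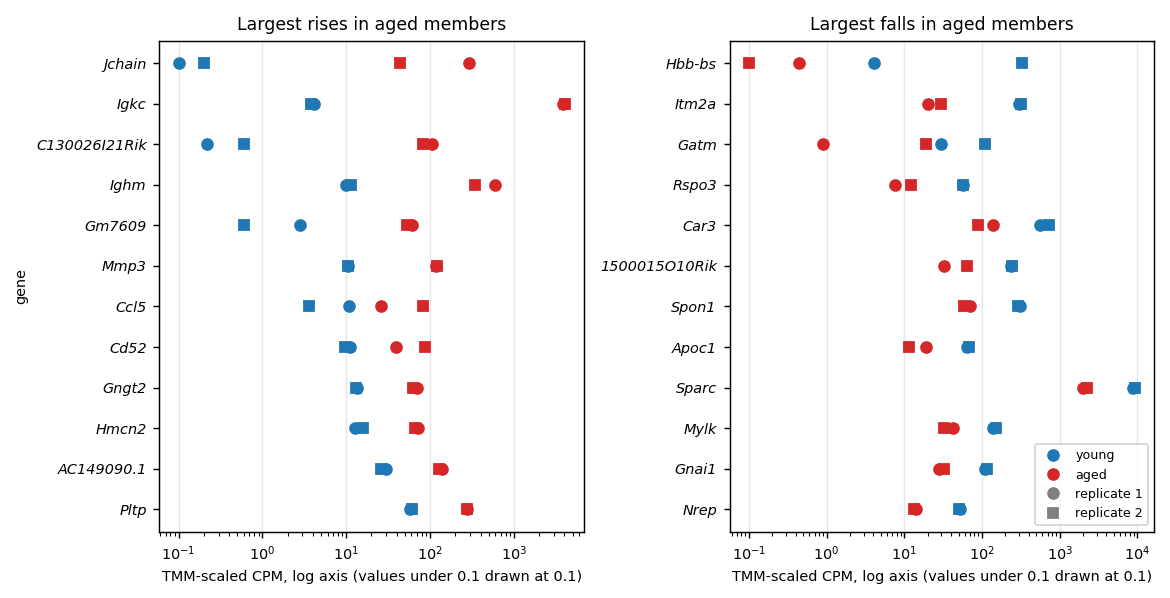
TMM-scaled CPM (log axis) in members of each library for the 12 genes with the largest rise (left) and the largest fall (right), young in blue and aged in red. The ages are apart for each gene shown, as the naming rule requires, and Hbb-bs stands out because young replicate 2 alone is high, at 333 CPM against 4.10 CPM in young replicate 1.

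Of chemokines and related cytokines, 7 of 22 tested rose and 0 fell, with a median log2 change of 0.42. In the other collagen-positive cells 9 of the list rose and 2 fell (median 0.28), where 9.73% of all genes rose and 10.3% fell. The age change of 2 genes of the list differed between the cell sets in the test given further below. Cxcl12 had 432 and 425 CPM in the young and 1196 and 1168 CPM in the aged members, a log2 change of 1.46 ± 0.084 (SE, adjusted p = 3.55e-06). Cxcl14 had 54.2 and 65.7 CPM in the young and 179 and 218 CPM in the aged members, a log2 change of 1.73 ± 0.14 (SE, adjusted p = 3.09e-05). Ccl11, the eosinophil-attracting eotaxin, had 620.2 and 684 CPM in the young and 1239 and 1205 CPM in the aged members, a log2 change of 0.91 ± 0.088 (SE, adjusted p = 1.30e-04). Cxcl9, an interferon-gamma target, went from 14.3 to 64.1 CPM (log2 change 2.18, adjusted p = 2.86e-04).

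Of the complement list, 1 of 17 rose and 2 fell, with a median of -0.10, where 5.16% of all genes rose and 5.55% fell. C4b had 297 and 358 CPM in the young and 1065 and 997 CPM in the aged members, a log2 change of 1.66 ± 0.11 (SE, adjusted p = 8.27e-06). C3, the most abundant complement gene, fell, with 7785 and 7549 CPM in the young and 6330.0 and 5929.9 CPM in the aged members and a log2 change of -0.32 ± 0.083 (SE, adjusted p = 0.033). The call for C3 was lost without young replicate 1 (-0.30), without young replicate 2 (-0.35) and without cluster 11 (-0.24). Il33, an alarmin cytokine, did not pass the test, with 79.3 ± 13.6 CPM against 67.6 ± 0.0385 CPM (SD, n = 2, log2 change -0.23, adjusted p = 0.33).

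Antigen presentation by MHC class I had 10 of 20 genes up and 1 down, with a median of 0.35. In the other collagen-positive cells 13 rose and 1 fell (median 0.44), and 0 genes of the list differed between the cell sets. H2-K1 had 999 and 983 CPM in the young and 1551 and 1562 CPM in the aged members, a log2 change of 0.65 ± 0.081 (SE, adjusted p = 6.51e-04). H2-Q7 went from 18.8 to 72.3 CPM (log2 change 1.94, adjusted p = 1.63e-05) and H2-Q6 from 6.13 to 36.6 CPM (log2 change 2.57, adjusted p = 1.86e-05), although these near-identical paralogs can share reads. Of 29 interferon response genes 5 rose and 0 fell (median 0.12), among them the immunoproteasome subunit Psmb8, from 168 to 282 CPM (log2 change 0.75, adjusted p = 0.00335). Of 7 MHC class II genes only H2-DMb1 rose, from 7.03 to 18.9 CPM (log2 change 1.43, adjusted p = 0.00812). The call for H2-DMb1 remained in 12 of 14 alternatives and was lost without cluster 11 (log2 change 1.12), among others. Cd74 did not pass, with 142 and 117 CPM in the young and 127 and 420.0 CPM in the aged libraries, aged replicate 2 alone being high.

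Stromal niche genes, the vessel- and leukocyte-supporting list, had 8 of 21 up and 2 down, with a median of 0.28. Vcam1, the adhesion molecule that binds leukocyte integrins, had 105 and 96.2 CPM in the young and 212 and 201 CPM in the aged members, a log2 change of 1.04 ± 0.10 (SE, adjusted p = 1.55e-04). Adm, the vasodilator adrenomedullin, went from 364 to 771 CPM (log2 change 1.08, adjusted p = 2.51e-04). Nrp1, a coreceptor of semaphorins and vascular growth factor, had 153 and 144 CPM in the young and 306 and 313 CPM in the aged members, a log2 change of 1.06 ± 0.096 (SE, adjusted p = 7.86e-05). Angptl1, an angiopoietin-like protein, fell from 131 to 37.9 CPM (log2 change -1.79, adjusted p = 1.19e-04).

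Collagen and its processing moved the other way. Of 22 genes tested in that list 14 fell and 0 rose, with a median of -0.67, and the counts for all genes were 5.55% lower and 5.16% higher. This fall was not particular to members. In the other collagen-positive cells 16 fell and 0 rose (median -0.59), and 2 genes of the list differed between the cell sets. Col1a1, Col1a2 and Col3a1 belong to the gate and are not in the list. Col5a2 had 576 and 561 CPM in the young and 226 and 210.0 CPM in the aged members, a log2 change of -1.38 ± 0.092 (SE, adjusted p = 1.03e-05). Adamts2, which trims procollagen, had 599 and 602 CPM in the young and 263 and 247 CPM in the aged members, a log2 change of -1.24 ± 0.09 (SE, adjusted p = 1.86e-05). Serpinh1, the collagen chaperone, went from 1626 to 840.2 CPM (log2 change -0.95, adjusted p = 8.05e-05).

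Basement membrane genes fell in 12 of 18 and rose in 1, with a median of -0.65. In the other collagen-positive cells 12 fell and 3 rose (median -0.46), and 0 genes of the list differed between the cell sets. Col15a1 had 398 and 360.1 CPM in the young and 152 and 122 CPM in the aged members, a log2 change of -1.47 ± 0.12 (SE, adjusted p = 4.05e-05). The laminin chains Lamc1 (-1.07), Lamb2 (-0.97) and Lama2 (-0.88) fell, with adjusted p from 9.34e-05 to 0.000374. Among 28 proteoglycan and matrix glycoprotein genes 9 fell and 2 rose (median -0.15): Eln, encoding elastin, went from 328 to 89.5 CPM (log2 change -1.87, adjusted p = 3.55e-06) and Postn from 223 to 73.8 CPM (log2 change -1.59, adjusted p = 1.86e-05), while Thbs2 rose from 50.9 to 153 CPM (log2 change 1.59, adjusted p = 1.86e-05). Dcn had 17615 ± 179 CPM against 21403 ± 668 CPM (SD, n = 2, log2 change 0.28, adjusted p = 0.056) and the receptor gene Pdgfra 875 ± 145 CPM against 769 ± 55.7 CPM (adjusted p = 0.37), and neither passed the test.

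Matrix proteases and their inhibitors split, with 6 of 22 up and 7 down (median -0.13). Beside Mmp3, Mmp11 rose from 8.37 to 32.2 CPM (log2 change 1.94, adjusted p = 2.29e-04) and the protease inhibitor Serpine2 from 109 to 246 CPM (log2 change 1.18, adjusted p = 5.74e-05). Adamts12 fell from 55.2 to 23 CPM (log2 change -1.26, adjusted p = 6.41e-04). Of 22 genes of the unfolded protein response and secretion 8 fell and 0 rose (median -0.26), with the chaperone Hspa5 going from 1207 to 779 CPM (log2 change -0.63, adjusted p = 0.00301).

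Growth factor, Wnt and BMP genes were split, with 6 of 30 up and 8 down (median -0.18). Igf1 had 1683 and 1652 CPM in the young and 849.6 and 876 CPM in the aged members, a log2 change of -0.95 ± 0.082 (SE, adjusted p = 5.96e-05). Hgf, the hepatocyte growth factor, was low at both ages but rose, with 6.91 and 4.65 CPM in the young and 17.2 and 14.2 CPM in the aged members and a log2 change of 1.45 ± 0.26 (SE, adjusted p = 0.00522). DESeq2's Wald test did not call Hgf (adjusted p = 0.057). Sfrp4, a secreted Wnt inhibitor, went from 43.7 to 129.6 CPM (log2 change 1.57, adjusted p = 3.13e-05). The insulin-like growth factor binding list, which also holds the non-coding RNA H19, had 7 of 14 down and 2 up (median -0.43). H19 had 56.4 and 24.5 CPM in the young and 3.36 and 1.39 CPM in the aged members (log2 change -4.06, adjusted p = 4.47e-04). Igfbp4, which was abundant, rose from 1449 to 2087 CPM (log2 change 0.53, adjusted p = 0.00258).

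Cell cycle genes fell in 9 of 19 with 0 up (median -1.59), although they were low at both ages. In the other collagen-positive cells 13 fell and 0 rose (median -1.57), and 0 genes of the list differed between the cell sets. Mki67 had 17.1 and 11.9 CPM in the young and 0.896 and 0.697 CPM in the aged members and Top2a 21.6 and 10.3 CPM in the young and 0.224 and 0.465 CPM in the aged members. The inhibitor and senescence list had 6 of 19 up and 3 down (median 0.34). Cdkn2c went from 29 to 92 CPM (log2 change 1.67, adjusted p = 2.13e-05), and Cdkn2a, the p16 gene, had 1.51 and 1.41 CPM in the young and 12.3 and 6.50 CPM in the aged members and a log2 change of 2.67 ± 0.44 (SE, adjusted p = 0.00318). Cdkn1a did not pass, with 103 ± 5.14 CPM against 131 ± 8.09 CPM (SD, n = 2, adjusted p = 0.074).

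The adipogenic and lipid list fell in 11 of 23 and rose in 2 (median -0.57). Adipoq, the adipocyte hormone adiponectin, had 29.2 and 37.2 CPM in the young and 0.448 and 0.465 CPM in the aged members, a log2 change of -6.10 ± 0.33 (SE, adjusted p = 2.77e-06). Car3, an adipocyte carbonic anhydrase, had 567 and 737 CPM in the young and 137 and 90.4 CPM in the aged members, a log2 change of -2.52 ± 0.18 (SE, adjusted p = 1.86e-05). Trf, transferrin, had 740.4 and 735 CPM in the young and 240.4 and 254 CPM in the aged members, a log2 change of -1.58 ± 0.089 (SE, adjusted p = 3.18e-06). All 3 were high in both young libraries, where cluster 11 held over 26% of the members.

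Values without cluster 11, an alternative chosen after seeing the data, differed for several of these genes. Adipoq then had 17.7 and 1.17 CPM in the young and 0.235 and 0.478 CPM in the aged members, young replicate 1 alone being high, and was too low to be tested. Car3 had 401 and 86.5 CPM in the young and 17.6 and 63.3 CPM in the aged members there, again with young replicate 1 far above the others, and a log2 change of -2.60 (adjusted p = 0.037). Trf had 187 and 192 CPM in the young and 195 and 219 CPM in the aged members, with a log2 change of 0.12. Agt, the angiotensin precursor, had 152 and 153 CPM in the young and 35.8 and 53.7 CPM in the aged members in all and 23.4 and 19.3 CPM in the young and 24.6 and 39.9 CPM in the aged members without the cluster, at a log2 change of 0.58. Lpl fell by 0.50 on the log2 scale with all members (adjusted p = 0.00318) and by 0.19 without the cluster, which did not pass.

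Apoc1 and Mylk, 2 of the 12 largest falls, also lost their calls there, at log2 changes of -0.995 and -0.34. The summed adipocyte markers were 602 and 823 CPM in the young and 142 and 97 CPM in the aged members, and 3 of the 5 tested fell. By contrast Cxcl12 had 339 and 299 CPM in the young and 1165 and 1159 CPM in the aged members without the cluster and a log2 change of 1.85, and C4b had 216 and 221 CPM in the young and 1056 and 1004 CPM in the aged members. Rspo3 had 27.9 and 29.9 CPM in the young and 7.51 and 11 CPM in the aged members there and fell by 1.65 on the log2 scale. Without cluster 11, 1067 genes changed in place of 1316, and 889 of them were shared in the same direction.

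Detoxification and retinoid genes rose in 6 of 22 and fell in 2 (median 0.056). Aldh1a2, which makes retinoic acid, had 0.216 and 0.808 CPM in the young and 9.18 and 11.1 CPM in the aged members, a log2 change of 4.22 ± 0.49 (SE, adjusted p = 3.96e-04), and Cyp26b1, which degrades it, went from 1.48 to 16.4 CPM (log2 change 3.46, adjusted p = 0.00102). In the glucocorticoid response list 3 of 18 rose and 7 fell (median -0.11). Hsd11b1, which regenerates active glucocorticoid, had 90 and 89.9 CPM in the young and 229 and 191 CPM in the aged members, a log2 change of 1.22 ± 0.12 (SE, adjusted p = 1.13e-04). Errfi1 fell from 312 to 162 CPM (log2 change -0.95, adjusted p = 2.25e-04).

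Metallothionein and oxidative stress genes rose in 4 of 20 and fell in 1 (median -0.025). Mt1, which binds zinc and copper, had 859 and 1097 CPM in the young and 1738 and 1838 CPM in the aged members, a log2 change of 0.87 ± 0.11 (SE, adjusted p = 9.00e-04). Heat shock and immediate early genes, which dissociation can induce, fell in 5 of 26 and rose in 1 (median -0.17), with Hspa1b going from 52.6 to 20.7 CPM (log2 change -1.34, adjusted p = 3.36e-04). Acute phase, iron and haem genes rose in 1 of 14 (Ftl1) and fell in 1 (Trf), with a median of -0.040. These counts are near the shares of all genes, 5.16% higher and 5.55% lower. Universal and progenitor fibroblast genes rose in 3 of 18 and fell in 1 (median 0.15), with Ly6c1 at 475 and 492 CPM in the young and 674 and 664 CPM in the aged members. The call for Ly6c1 remained in 10 of 14 alternatives. It was lost without young replicate 1 (log2 change 0.44) and without cluster 11 (0.18), among others. The call for Ftl1 was lost without young replicate 1 (0.37).

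Housekeeping lists are read against the 5.16% of all genes that rose and the 5.55% that fell. Of 40 ribosomal protein genes 4 rose and 0 fell (median 0.15), while 26 rose in the other collagen-positive cells, and 8 of the 40 passed the test of the difference. Of 35 oxidative phosphorylation genes 1 rose (median 0.095), and of 19 cholesterol synthesis genes 3 rose (median 0.20). The calls for these 3, Fdft1, Fdps and Msmo1, remained in 13, 9 and 7 of 14 alternatives. Of 14 Notch and contractile genes 2 rose and 1 fell (median 0.45), with Mylk, a myosin kinase, having 137 and 151 CPM in the young and 42.3 and 32.3 CPM in the aged members. The 2 rises were low in level, Notch3 from 1.68 to 5.71 CPM and Heyl from 1.04 to 4.22 CPM. Their calls remained in 8 and 7 of 12 alternatives.

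**Figure D4:**
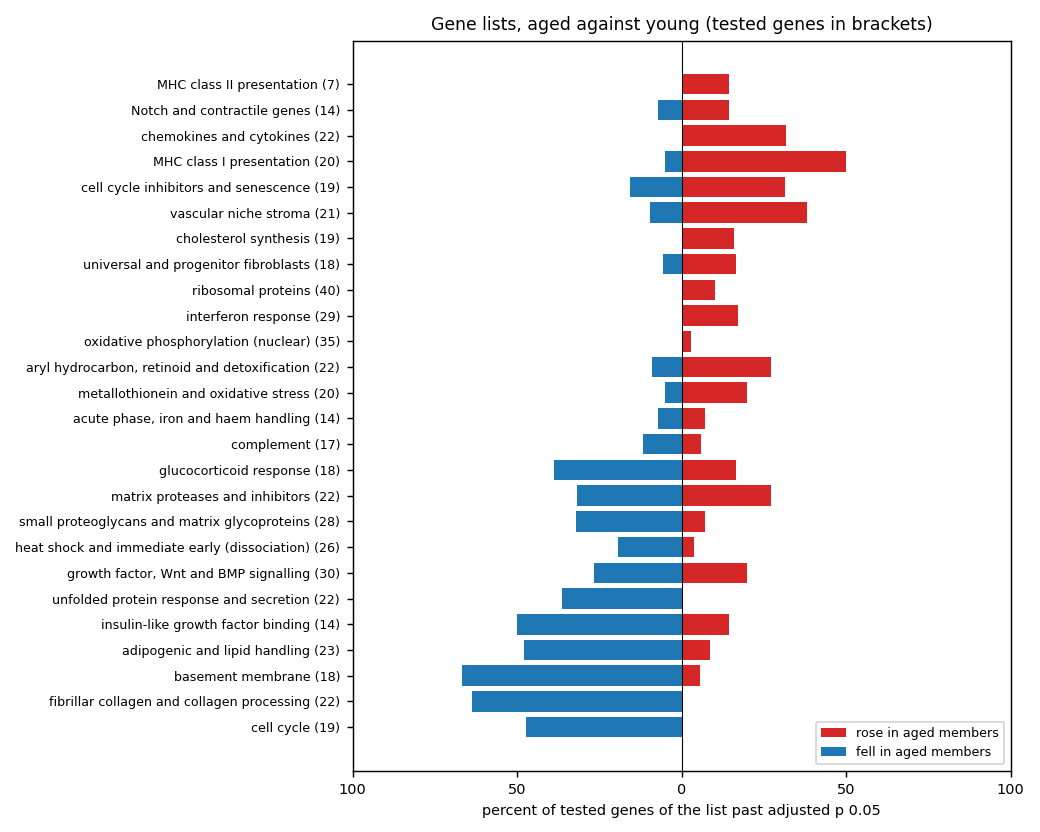
Percent of the tested genes of each list that rose (red, right) or fell (blue, left) past adjusted p 0.05 in aged members, with the number tested in brackets, ordered by the median log2 change. Over all 12294 genes 5.16% rose and 5.55% fell, and 14 of 22 collagen processing genes fell against 10 of 20 MHC class I genes that rose. In the other collagen-positive cells, not shown, 16 collagen processing genes fell and 13 MHC class I genes rose.

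Other collagen-positive cells of the same libraries changed with age as well, with 3145 of 15707 genes past the threshold (20%, with 9.73% higher and 10.3% lower). The difference between the age change in members and that in the others was tested directly, with the library as a block. Of 13659 genes 229 differed (1.68%), 102 with a more positive change in members (0.747%) and 127 with a more negative one (0.93%), and 1747 had an unadjusted p under 0.05. The count depended on single libraries: it was 56 without aged replicate 1, 139 without aged replicate 2, 440 without young replicate 1 and 533 without young replicate 2.

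Rspo3 had the largest negative difference among genes with at least 50 CPM in the members at one age, -2.29 ± 0.15 (SE, adjusted p = 2.72e-04), with log2 changes of -2.53 in members and -0.23 in other collagen-positive cells. The call for Rspo3 passed in each of the 12 alternatives run for it. Sox9, a transcription factor of cartilage and fibroblast progenitors, had log2 changes of -0.52 in members and 1.34 in other collagen-positive cells, a difference of -1.85 ± 0.17 (SE, adjusted p = 0.00124). Sox4, a related factor, had log2 changes of -0.27 in members and 0.70 in other collagen-positive cells, a difference of -0.97 ± 0.13 (SE, adjusted p = 0.00869), which was lost without aged replicate 1 (-0.97, adjusted p = 0.086). The change in members did not pass for Sox4. For Sox9 the change in members kept its call and sign in 7 of 14 alternatives. It was lost without young replicate 2 (-0.38) and without aged replicate 2 (-0.41), and its sign reversed without cluster 11 (1.28). Without cluster 11 the Sox9 difference was -0.94 and did not pass, and those of Trf (-0.073) and Fndc5 (-0.038) did not either.

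Cdh11, an adhesion molecule of mesenchymal cells, rose in members and fell in the others, with log2 changes of 0.55 in members and -0.70 in other collagen-positive cells and a difference of 1.27 ± 0.087 (SE, adjusted p = 2.74e-04). The rise of Cdh11 in members was lost without young replicate 2 (0.44), with at least 3 markers (0.19) and without cluster 11 (0.40). Gas6, a ligand of TAM receptors, had log2 changes of 0.89 in members and -0.28 in other collagen-positive cells, a difference of 1.20 ± 0.093 (SE, adjusted p = 6.41e-04). Cyr61, a matricellular protein, had log2 changes of 1.06 in members and -0.18 in other collagen-positive cells, a difference of 1.24 ± 0.12 (SE, adjusted p = 0.00198). Cilp, a cartilage matrix protein, had log2 changes of 0.63 in members and -0.63 in other collagen-positive cells, and Fxyd6, an ion pump regulator, by 0.30 in members and -0.996 in other collagen-positive cells, with differences of 1.24 and 1.30. In members the changes of Gas6 and Cyr61 passed and those of Cilp and Fxyd6 did not, and in the others those of Cilp and Fxyd6 passed and those of Gas6 and Cyr61 did not. The differences of these 5 genes passed in each of the 12 alternatives run for them, none of which left out cluster 3. Cluster 3, with Fxyd6 and Fmod among its top genes, held 12.5% and 10.8% of young and 4.78% and 4.33% of aged collagen-positive cells. Whether that share bears on the differences of Cilp and Fxyd6 was not tested.

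Gngt2 rose in both sets, with log2 changes of 2.31 in members and 1.17 in other collagen-positive cells, and its level in members stayed below that of the others at both ages. Cxcl12 and C4b also rose in both sets and rose less in members, with differences of -0.59 ± 0.081 (SE, adjusted p = 0.00849) and -0.94 ± 0.15 (SE, adjusted p = 0.014). For Cxcl12 and C4b the calls for the difference were lost without cluster 11, at -0.30 and -0.53, and C4b lost its call without aged replicate 1, at -1.11. Cd52 and Ccl8, genes of lymphocytes and macrophages, had differences of 1.25 and 1.18, and 0.64 and 0.083 without the clusters led by other cell types, neither of which passed.

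**Figure D5:**
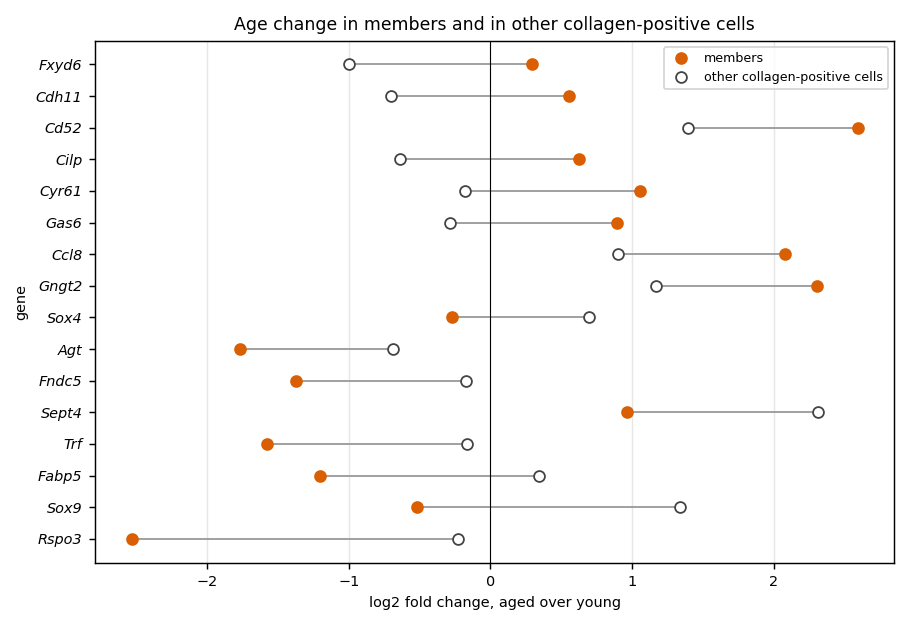
Log2 fold change with age (aged over young) in members (filled) and in other collagen-positive cells (open) for the 8 genes with the most positive and the 8 with the most negative difference. Fxyd6, Cdh11 and Cilp lie on opposite sides of 0 in the 2 cell sets, and Rspo3 shows the widest negative gap, -2.53 against -0.23.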

How the data were processed

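The authors deposited matrices of raw UMI counts per gene and cell barcode, per the file headers, made with Cell Ranger on GRCm38. The submitters' processing notes name version 6.0.2 and the file headers 6.0.1. The annotation used is not given in the sources used here, and 99.6% of the 52636 gene identifiers were in GENCODE M21.

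Member counts were summed per library and tested with edgeR 4.0.16 (R 4.3.3; quasi-likelihood, TMM, filterByExpr, Benjamini-Hochberg over all genes tested), with age as the only term. The difference of age changes used 8 sums with the library as a block. Replicate numbers pair nothing per the labels. The 2 replicates of an age differed by more than counting noise (chi-square over degrees of freedom 3.77 and 4.15). Intervals cover counting error only. Members and gene lists were chosen with earlier results of these data known. 1 gene of the complement list is not reported here and was left out of that list's counts.

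Named genes were the 25 outside the rule with the largest lowest-library ratio over other collagen-positive cells (pseudocount 1 CPM, at least 50 CPM in members of each library). With age they were the 12 largest rises and 12 largest falls past adjusted p 0.05, without overlap and with a mean of at least 50 CPM at one age, up to 4 genes of each list by p, and 16 genes named regardless of their test. For the difference they were the 8 largest in each direction.

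Doublets were kept as the rule does. Scrublet (scanpy 1.11.5) marked 1.15% to 4.40% of members, and their removal was an alternative. Clusters came from 2000 variable genes without rule or mitochondrial genes, 30 components, 15 neighbours and Leiden resolution 1 (leidenalg 0.10.2, Python 3.11.15). Other alternatives were DESeq2 1.42.0 (size factors or its Wald test), no filter on low counts, 3 or 5 markers, thinning to 2000 UMIs, leaving out each library and a replicate term.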

Additional observations from a re-analysis of the deposited data

Results flagged for a closer look

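For 39 named genes the age change in members differed from that in other collagen-positive cells of the same libraries by a test of the difference itself (edgeR, adjusted p under 0.05). Values are log2 differences, members minus others. No cause was tested for any of them. Since members and others share libraries, both changes rest on the same 4 libraries.

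Among matrix and adhesion genes the difference was positive for Cdh11 (1.27), Cilp (1.24), Cyr61 (1.24), Ctgf (1.67) and Thbs2 (0.69), and negative for Eln (-0.68) and Sned1 (-0.63). For the myosin kinase Mylk the difference was negative (-0.92). Among secreted regulators it was positive for Gas6 (1.20), Sfrp4 (0.60), Igfbp5 (0.67) and Serpine2 (0.46), and negative for Rspo3 (-2.29), C4b (-0.94), Cxcl12 (-0.59), 1500015O10Rik (-0.63) and Cp (-0.76). Transcription and growth control gave Sox9 (-1.85), Sox4 (-0.97) and Cdkn1c (0.65).

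Lipid and adipocyte genes gave Adipoq (-4.61), Trf (-1.40), Fabp5 (-1.55), Agt (-1.05), Fndc5 (-1.19), Apoe (-0.47) and Pltp (0.50). Enzymes and other genes gave Aldh1a2 (3.42), Gsta4 (0.77), Ggt5 (-0.52), Hspa1a (-0.80), Itm2a (-0.70), Gnai1 (-0.67), Sept4 (-1.33), Fxyd6 (1.30) and Gngt2 (1.15). Genes of immune cells gave Cd52 (1.25), Ccl8 (1.18) and Ctss (1.38). Of the 39 calls, 14 remained without aged replicate 1 and 28 without aged replicate 2. Without the adipocyte-led cluster 16 remained, 3 changed sign and the difference of Adipoq was -0.76, and without the clusters led by other cell types 35 remained.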

How the results depend on the processing

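In place of the 1316 age calls in members there were 917 to 1389 with 1 library left out, and 816 to 1004 of the 1316 were among them in the same direction. There were 860 with all 5 markers required, 2064 with at least 3 markers, 705 after thinning to 2000 UMIs and 623 by DESeq2's Wald test. Size factors of DESeq2 (1290), no filter (1367), doublet removal (1572), removal of clusters led by other cell types (1922) and removal of the adipocyte-led cluster (1067) stayed within 1.5 times. With the replicate number as a block there were 2269, although labels state no pairing; replicate deviations correlated at r = 0.43 over 4533 genes across the ages, and with 2 pairs this decides nothing.

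The 229 differences between members and other collagen-positive cells were 56 to 533 with 1 library left out, 479 without the filter, 143 after thinning, 414 without clusters led by other cell types and 105 without the adipocyte-led cluster. The log2 ratio of shares lay between 1.24 and 2.27 under 10 other settings and was 0.23 with all cells as denominator. With the replicate numbers as pairs it was 1.61 (exact sign-flip p = 0.5, the smallest that 2 pairs allow).

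Signs reversed for the age change of Fabp4 with all 5 markers (0.93) and, without the adipocyte-led cluster, for Trf (0.12), Sox9 (1.28), Fndc5 (0.065) and Agt (0.58). The difference reversed there for Agt (0.075), Mylk (0.56) and Apoe (0.55), and for Apoe with at least 3 markers (0.12). The cause was not tested.

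With 2 libraries an age, a lone library left in is assumed to vary like the others.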
